A study of Rattus norvegicus with 6 samples.

Results

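Of the 8 neurotrophin and sensory TRP channel genes examined here, Trpa1 passed the thresholds on unadjusted p and fold change in fibrotic rat lung, as did 1.52% of all genes tested. The other 7 (Ngfr, Bdnf, Ntf3, Ntrk2, Trpv1, Trpv2 and Trpv4) passed neither threshold. None of the 8 passed after adjustment over all genes, and Trpa1 no longer passed when either of 2 single rats was left out. The genes were taken as all rows of the deposited transcript table whose gene name was one of the 8, which gave 8 of the 21655 gene names and 20 of the 70376 transcripts. Of these 20 transcripts, 16 carried an Ensembl identifier and 4 came from the assembly alone. The samples were whole lung of Sprague-Dawley rats aged 7 weeks at the start. The model group, 3 rats, received 1 intratracheal dose of bleomycin at 7 mg/kg, and the control group, 3 rats, received the same volume of saline. Lung was taken on day 28, and 1 library depleted of rRNA was sequenced per rat. The sex of the rats was not given in the sources used here. Bleomycin injury of the lung is a chemical model of fibrosis, and whole lung mixes airway, vessel, alveolus and nerve endings, so that fewer cells of a type and less RNA per cell cannot be told apart in these values.

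Neurotrophins are small secreted proteins that keep neurons alive and guide their endings. Bdnf and Ntf3 encode members of this family. Ntrk2 encodes TrkB, the receptor tyrosine kinase for BDNF, and Ngfr encodes p75NTR, a receptor without a kinase domain that binds all neurotrophins. TRP channels are cation channels, and TRPA1 and TRPV1 are best known in the sensory nerve fibres of the airway, where TRPA1 answers to reactive irritants and TRPV1 to heat, acid and capsaicin. TRPV4 answers to swelling and stretch and is also known in lung epithelium, endothelium and fibroblasts, and TRPV2 is known in immune cells and muscle as well as in neurons. The cell bodies of airway sensory neurons lie in ganglia outside the lung, so that lung tissue holds mainly their fibres.

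Some of the transcripts differed by their first exon, and the sequences upstream of their start sites are shown. For 3 of these starts, FPKM were assigned in a single sample or nearly so. This was read from the FPKM assigned to each transcript, and reads over the first exons alone were not examined. Of the 8 genes, 5 had a promoter entry in the RefSeq table (build GRCr8). The build of the deposited coordinates is not given in the sources used here, so start sites were matched to RefSeq entries only by their spacing within a gene, to within 1 base. For Bdnf, the starts of 4 transcripts lay 0, 18225, 20169 and 20225 bases downstream of the first, and all 4 spacings were found in RefSeq. The start of ENSRNOT00000073636, the spliced Bdnf transcript with the highest FPKM, had no RefSeq entry. The 250 bases upstream of the Bdnf start of ENSRNOT00000083542 (GRCr8 chr3:116619383-116619632, plus strand) and of ENSRNOT00000080190 (GRCr8 chr3:116637608-116637857, plus strand), both above 0 FPKM only in Model_3, read 5′ to 3′ as follows, with any core of the cyclic AMP response element (CGTCA, or TGACG for the other strand) in capitals.
ENSRNOT00000083542: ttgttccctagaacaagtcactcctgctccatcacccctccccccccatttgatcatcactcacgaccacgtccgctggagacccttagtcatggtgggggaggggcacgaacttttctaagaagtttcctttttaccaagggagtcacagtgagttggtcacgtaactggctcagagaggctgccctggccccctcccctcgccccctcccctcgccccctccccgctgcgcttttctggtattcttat
ENSRNOT00000080190: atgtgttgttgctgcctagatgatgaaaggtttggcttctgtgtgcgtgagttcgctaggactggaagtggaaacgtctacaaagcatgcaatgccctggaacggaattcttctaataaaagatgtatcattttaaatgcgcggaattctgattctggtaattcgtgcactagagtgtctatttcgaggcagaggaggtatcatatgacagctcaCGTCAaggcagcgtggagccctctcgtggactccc
The first held no such core and the second held 1. The core, on either strand, was present in 6097 of 33469 RefSeq promoters of the same length (18.2%), and the full palindrome TGACGTCA in 1.59%. Stretches upstream of Bdnf exons are known in neurons for binding of CREB, the factor that recognises this element.

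The starts of the 2 Ntf3 transcripts lay 1715 bases apart. The 250 bases upstream of the more distal start, used by ENSRNOT00000087115 (GRCr8 chr4:160670624-160670873, minus strand), and of the more proximal one, used by ENSRNOT00000082009 (GRCr8 chr4:160668908-160669157, minus strand), are shown because Control_3 alone had all of its Ntf3 signal on the latter, and neither held that core.
ENSRNOT00000087115: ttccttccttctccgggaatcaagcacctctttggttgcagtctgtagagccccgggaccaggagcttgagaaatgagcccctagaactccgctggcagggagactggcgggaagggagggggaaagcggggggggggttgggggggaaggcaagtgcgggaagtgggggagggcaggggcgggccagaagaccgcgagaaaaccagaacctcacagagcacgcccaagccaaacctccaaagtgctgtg
ENSRNOT00000082009: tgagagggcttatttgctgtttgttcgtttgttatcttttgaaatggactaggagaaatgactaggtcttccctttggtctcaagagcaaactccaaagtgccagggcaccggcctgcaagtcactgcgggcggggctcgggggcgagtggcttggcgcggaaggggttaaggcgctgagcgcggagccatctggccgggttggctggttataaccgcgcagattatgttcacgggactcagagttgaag

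The deposited FPKM, a count of fragments scaled to the length of the transcript and to the size of the library, were summed over the transcripts of each gene. By this measure, which takes account of length, Trpv2 was the most abundant of the 8 genes, with a mean over the 6 samples of 9.46 FPKM (range 7.11 to 11.9). Bdnf followed with 3.77 FPKM (3.04 to 4.25), and neither range overlapped that of the next gene. The place of Bdnf depended on short unspliced pieces described below, and its spliced transcripts alone averaged 1.61 FPKM (0.885 to 2.16), level with Trpv4. Trpv4 (1.61 FPKM), Ntrk2 (0.856), Ngfr (0.476), Trpv1 (0.300), Trpa1 (0.299) and Ntf3 (0.155) came next, and the range of each overlapped that of its neighbour in this order. Thus 5 of the 8 genes lay below 1 FPKM, against a median of 3.99 FPKM over the 19645 genes tested, and in that ranking Trpv2 had a percentile of 72.5 and Ntf3 one of 11.2.

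**Figure D1:**
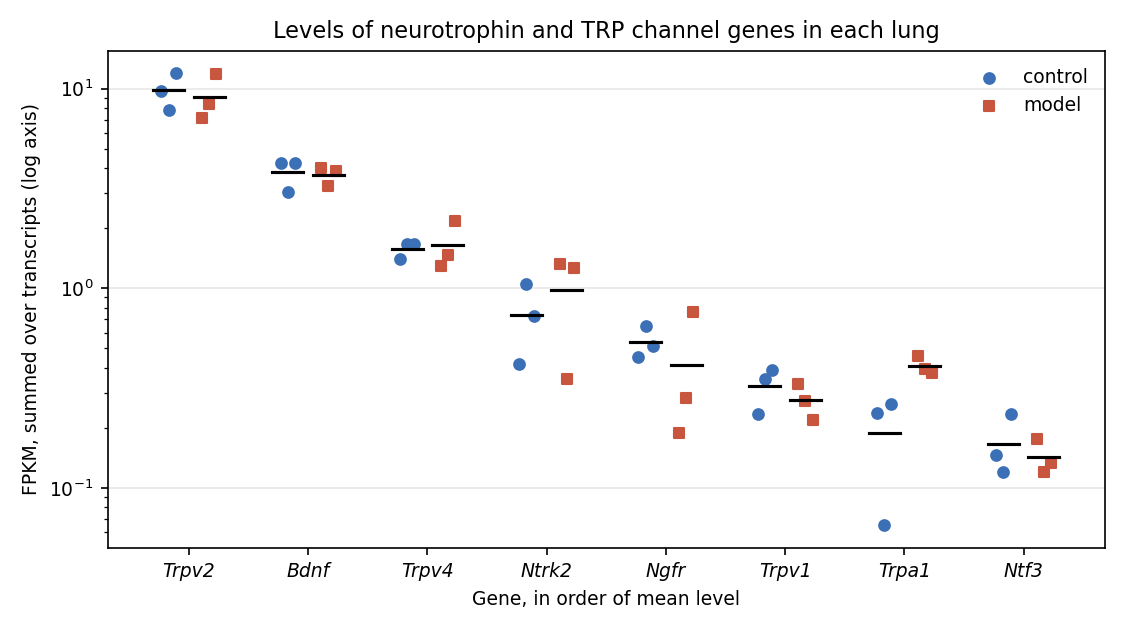
FPKM of the 8 genes, summed over the transcripts of each gene and drawn on a log axis, in the 3 control (circles) and 3 model (squares) rats, with the group means as black lines. Only Trpa1 has all 3 model points above all 3 control points, from 0.377 to 0.456 FPKM against 0.0651 to 0.263.

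The 2 groups were compared by limma, fitted on log2(FPKM + 1) to all 19645 genes with FPKM above 0 in at least 3 samples. Fold changes are on this scale, which understates the change of genes near or below 1 FPKM. A gene was called where limma's p before adjustment did not exceed 0.05 and the group means of FPKM differed by at least 1 log2 unit in either direction. By this rule 1 of the 8 genes, Trpa1, was called, against 298 of all 19645 genes (1.52%). With the p alone, 1 of 8 passed, against 965 genes (4.91%). After Benjamini-Hochberg adjustment in limma 0 of 8 genes passed, with adjusted p between 0.933 and 0.995, against 2 genes of all tested (0.0102%). The groups did not overlap for 1 of the 8, against 2101 genes (10.7%). In the model samples 3 of the 8 were higher and 5 lower, and the median log2 difference was -0.03, beside -0.01 over all genes. Each library held between about 35800000 and 41100000 reads as estimated from the deposited coverage, with medians of 39300000 in control and 38900000 in model samples, and genes named after small RNA families made up 34.2% to 46.4% of the FPKM.

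Among the ligands, Bdnf did not differ between the groups by more than the spread between rats. Its FPKM were 4.24, 3.04 and 4.25 in Control_1, Control_2 and Control_3 and 3.99, 3.26 and 3.86 in Model_1, Model_2 and Model_3. The group values interleaved, with the lowest in Control_2 and the highest in Control_3. The log2 difference was -0.04 (SE 0.152, 95% interval -0.40 to 0.33) with a limma adjusted p of 0.993, and the exact permutation p was 0.6. The sum, however, mixed 2 kinds of RNA. Of the 7 Bdnf transcripts, 5 were annotated and spliced, and 2 were unstranded single-exon pieces of 270 and 303 bases that the assembly placed inside a Bdnf intron, at chr3:100797074-100797343 and chr3:100797618-100797920 in the coordinates of the table. These pieces gave 57.4% of the Bdnf FPKM over the 6 samples, though only between 14.5 and 36.7 estimated reads per library, since FPKM divides by length.

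The spliced Bdnf transcripts together had 1.64, 1.90 and 1.56 FPKM in the control rats and 2.16, 0.885 and 1.48 FPKM in the model rats. Control values lay close together, whereas the model rats lay on both sides of them. The means were 1.70 ± 0.178 and 1.51 ± 0.640 FPKM (SD), and an exact permutation test gave a p of 0.7, where 3 rats against 3 allow no p below 0.1. The difference of the means, -0.193 FPKM, became -0.519 without Model_1 and 0.120 without Model_2. ENSRNOT00000073636, with 2 exons (chr3:100787956-100819210), was the main spliced form, at 1.55, 1.85 and 1.53 FPKM in control and 2.12, 0.844 and 0.870 FPKM in model samples. In Model_3 a further 0.348 FPKM (68.7 estimated reads) came from ENSRNOT00000083542 and 0.227 FPKM (41.6 reads) from ENSRNOT00000080190, whose upstream sequences are printed above. Both were listed at 0 in the other 5 samples. The other 2 spliced forms stayed at or below 0.0902 FPKM in every sample.

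Ntf3, which encodes neurotrophin-3, was the least abundant of the 8 genes. Its FPKM were 0.146, 0.120 and 0.235 in control and 0.176, 0.121 and 0.134 in model samples, from 7.21 to 15.7 estimated reads per library. The groups overlapped, with a log2 difference of -0.03 (SE 0.0573, limma adjusted p = 0.969), and at these read numbers a change could be seen only if it were large. In 4 samples all of the signal was assigned to the distal start (ENSRNOT00000087115), and in Model_3 95.5% was. Control_3 alone had 100% assigned to the proximal start (ENSRNOT00000082009), at 0.235 FPKM and only 15.7 estimated reads.

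Among the receptors, the model rats spread most for Ngfr relative to its mean (coefficient of variation 75.0%, against 55.6% for Ntrk2). Its single transcript, with 6 exons at chr10:83389847-83408061, had 0.451, 0.650 and 0.517 FPKM in control and 0.188, 0.283 and 0.765 FPKM in model samples. Model_1 and Model_2 lay below all control rats and Model_3 lay above them. The log2 difference was -0.14 (SE 0.156, 95% interval -0.52 to 0.23, limma adjusted p = 0.942). Without Model_3 it was -0.32 with a limma p of 0.0147 before and 0.981 after adjustment, which met the thresholds for a call. With all 6 rats Ngfr was not called.

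Ntrk2 varied by more than 3 times within the model group alone. Its FPKM were 0.420, 1.05 and 0.726 in control and 1.32, 0.351 and 1.26 in model samples. The 2 highest values were those of Model_1 and Model_3 and the lowest that of Model_2. The log2 difference was 0.16 (SE 0.246, 95% interval -0.43 to 0.76, limma adjusted p = 0.957). Leaving out single rats moved it from 0.0277 (without Model_1) to 0.42 (without Model_2), where the groups no longer overlapped and the limma adjusted p was 0.820. Of its 2 transcripts, the 13-exon form ENSRNOT00000090914 (chr17:6114598-6244627, minus strand) held 84.7% of the FPKM on average, and the 19-exon form ENSRNOT00000082611 (chr17:5933729-6244676), which runs on to a more distant 3′ end, held 15.3%. Ntrk2 is known to make a truncated receptor without the kinase domain beside the full-length one. The 19-exon form lay between 0.0362 and 0.141 FPKM in all 6 samples, and its share ranged from 3.69% in Model_1 to 39.4% in Model_2. The mean share of the 13-exon form was 87.4% ± 3.60 in control and 82.1% ± 18.9 in model samples (SD), with an exact permutation p of 0.9 (1 after Benjamini-Hochberg adjustment over 5 genes with several transcripts).

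Among the sensory channels, Trpa1 was higher in the model rats. Its FPKM were 0.236, 0.0651 and 0.263 in Control_1, Control_2 and Control_3 and 0.456, 0.395 and 0.377 in Model_1, Model_2 and Model_3. Every model rat lay above every control rat, and Control_2 lay far below the other two. The estimated reads behind these values were 37.0, 9.37 and 43.5 in control and 74.7, 58.7 and 58.6 in model samples. The means were 0.188 ± 0.107 and 0.410 ± 0.0415 FPKM (SD), a ratio of 2.18, and the log2 difference was 0.25 (SE 0.0813, 95% interval 0.05 to 0.45). Limma gave a p of 0.0199 before adjustment, which 335 of the 19645 genes reached, and an adjusted p of 0.933. An exact permutation test of FPKM gave 0.1, the smallest p that 3 against 3 allow, and 0.8 after Benjamini-Hochberg adjustment over the 8 genes. All of it came from 1 transcript of 27 exons, ENSRNOT00000009874 (chr5:3783247-3836485). The call rested on 2 libraries, since without Control_2 the log2 ratio of the means was 0.71, under the threshold of 1, and without Model_1 the limma p before adjustment was 0.0594. Over all 17 alternatives that p ranged from 0.0167 to 0.0594 and the adjusted p was never below 0.820.

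Trpv1 lay at a low level in both groups, at 0.235, 0.351 and 0.389 FPKM in control and 0.332, 0.272 and 0.219 FPKM in model samples. The groups overlapped, with a log2 difference of -0.06 (SE 0.0710, 95% interval -0.23 to 0.12, limma adjusted p = 0.948). Of its 3 transcripts, ENSRNOT00000026493 with 16 exons (chr10:59799123-59824208) held 96.3% of the FPKM on average. Trpv4 also did not differ beyond its spread. Its single transcript of 16 exons (chr12:47698947-47737902) had 1.40, 1.66 and 1.67 FPKM in control and 1.30, 1.46 and 2.18 FPKM in model samples, with Model_3 the highest and Model_1 the lowest of all. The log2 difference was 0.03 (SE 0.154, 95% interval -0.35 to 0.40, limma adjusted p = 0.995).

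Trpv2 had 9.75, 7.81 and 11.9 FPKM in control and 7.11, 8.33 and 11.8 FPKM in model samples, with Control_3 and Model_3 the highest. The log2 difference was -0.11 (SE 0.213, 95% interval -0.62 to 0.40, limma adjusted p = 0.968). Of its 3 transcripts, the main one held the largest share in every sample, from 48.5% in Control_1 to 93.3% in Model_1. Only the lesser ones changed order between samples. The main one, an assembled form of 16 exons (chr10:48896066-48925030) that shares splice junctions with the annotated transcript, had 4.73, 7.01 and 6.11 FPKM in control and 6.63, 7.60 and 9.29 FPKM in model samples. Its mean was higher in the model rats but the groups overlapped (log2 difference 0.35, SE 0.176, limma adjusted p = 0.945). The annotated transcript ENSRNOT00000004248, with 15 exons, had 5.81 FPKM in Control_3 and 2.54 FPKM in Model_3 and was below 0.8 FPKM in the other 4. An assembled form of 11 exons had 4.59 FPKM in Control_1 and at most 0.00596 FPKM elsewhere. The share of the main form was 63.2% ± 23.1 in control and 87.7% ± 8.0 in model samples (SD), with an exact permutation p of 0.2 (0.5 after adjustment over 5 genes). Trpv2 was also the only one of the 8 genes with a circular RNA in the deposited table, supported by 1 back-splice read in Control_2 (chr10:48922131-48923182, 2 exons), while each library held between 2037 and 2964 back-splice reads in all.

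**Figure D2:**
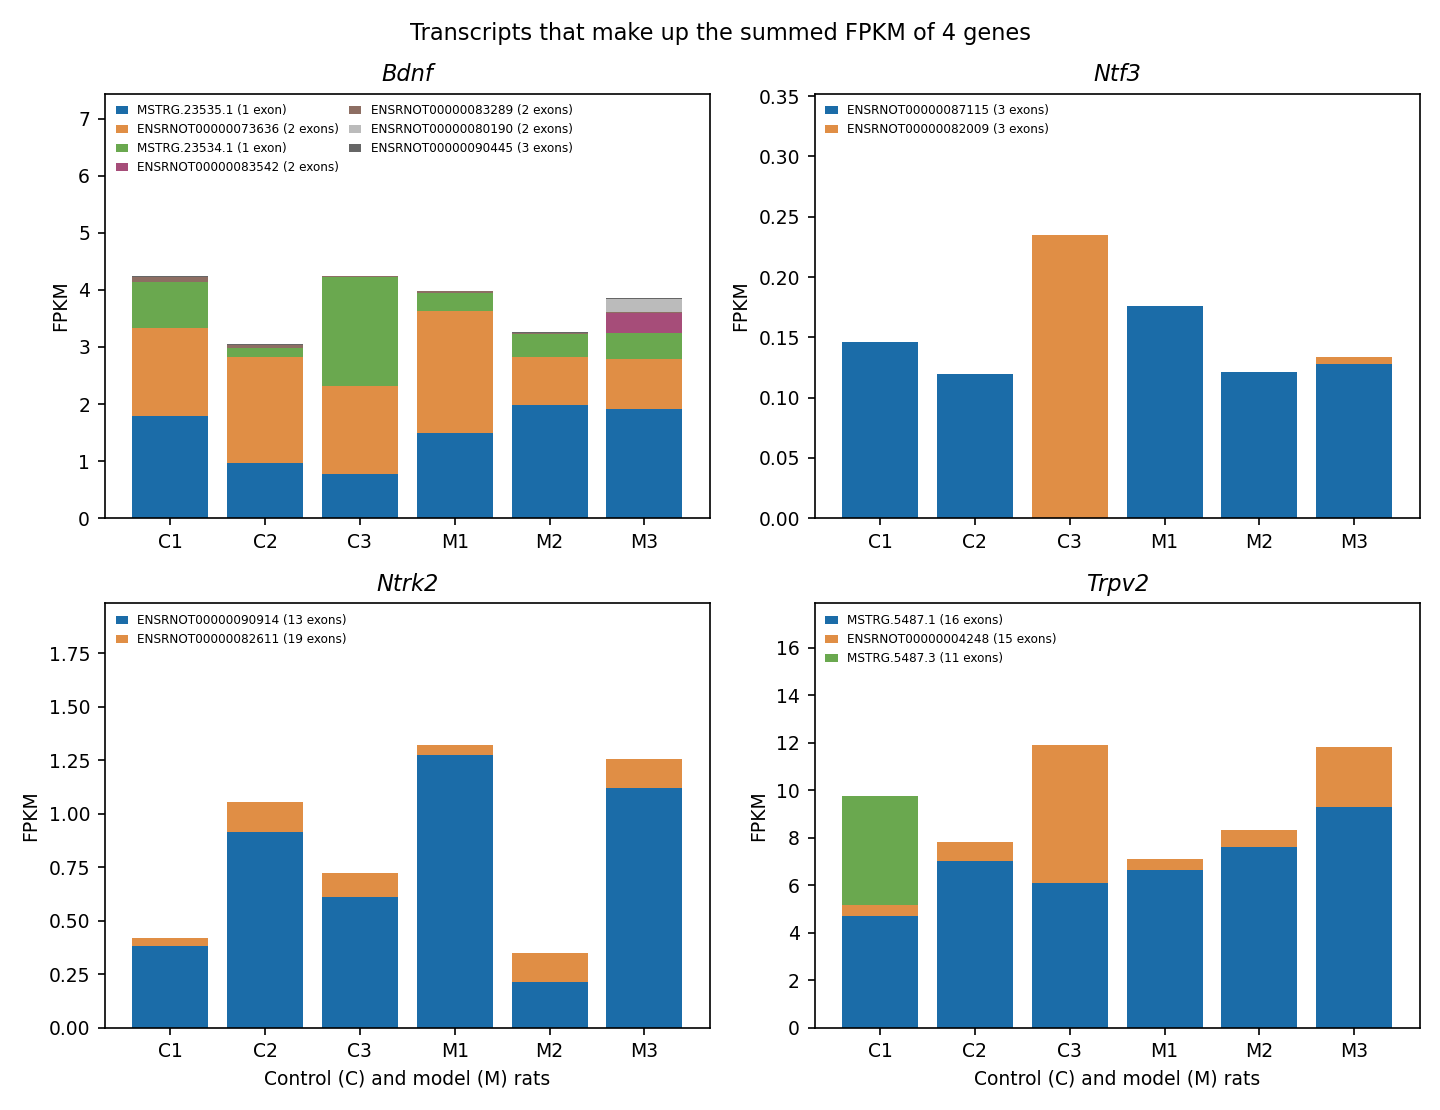
Transcripts that make up the FPKM of Bdnf, Ntf3, Ntrk2 and Trpv2 in control (C) and model (M) rats, as stacked bars on a linear axis from 0. The Bdnf forms of 0.348 and 0.227 FPKM appear only in M3, the Ntf3 form ENSRNOT00000082009 fills the bar of C3, and the 11-exon Trpv2 form of 4.59 FPKM appears in C1.

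Over single transcripts, 17 of the 20 passed the filter on low values. Of these, 1 was called by p and fold change, that of Trpa1 (limma p of 0.0302 before adjustment), against 2.98% of the 64867 transcripts tested. That call was lost in 4 of the 6 fits that left out 1 rat, namely Control_2, Model_1, Model_2 or Model_3. None of the 17 passed after adjustment in limma, with a lowest adjusted p of 0.945, against 0.0277% of all transcripts. By the unadjusted limma p alone, 1 of the 17 was at or below 0.05, against 2939 of the 64867 transcripts tested.

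The wider group of neurotrophin ligands and receptors counted here held 13 genes, of which 12 were tested, including 4 of the 8 genes above. Of the 12, 1 gene, Sorcs1, a receptor of the sortilin family, passed the p and fold thresholds and was lower, against 1.52% of all genes called. In all, 5 were higher and 7 lower, and the median log2 difference was -0.02. Sorcs1 had 1.64, 1.57 and 2.49 FPKM in control and 0.223, 0.491 and 0.870 FPKM in model samples. The groups did not overlap, with a log2 difference of -0.93 (SE 0.198), a limma p of 0.00271 before adjustment and an adjusted p of 0.933. As with Bdnf, most of this sum (79.3%) came from a single-exon intronic piece, here of 201 bases and 8.46 to 20.3 estimated reads in the control libraries. The annotated transcript of 26 exons had 0.164, 0.582 and 0.425 FPKM in control and 0.0202, 0.266 and 0.0516 FPKM in model samples. These overlapped, and with annotated transcripts alone the log2 difference of Sorcs1 was -0.32 and it was no longer called (limma p of 0.0653 before adjustment). The log2 ratio of the means stayed about as large, at -1.79 for the annotated transcript and -1.85 for the sum, and the log2(FPKM + 1) scale shrinks differences at low levels. The most abundant genes of the group were Sort1, the sortilin receptor for proneurotrophins, at a mean of 41.6 FPKM, and Sorcs2 at 23.0 FPKM, followed by Bdnf, which lay below Nradd (2.52 FPKM) when single-exon pieces were left out. Sorcs2 had 22.4, 22.7 and 19.0 FPKM in control and 24.4, 23.7 and 25.9 FPKM in model samples (log2 difference 0.20, SE 0.0918, limma adjusted p = 0.933), and its groups did not overlap. The groups did not overlap for 3 of the 12 genes, against 10.7% of all genes tested.

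Of the TRP channel family, 25 of 28 genes were in the table and all 25 were tested. By p and fold change 2 of the 25 were called, against 1.52% of all genes tested. Trpa1 was higher and Trpm3, a heat-sensitive channel of sensory neurons, was lower. Of the 25 genes, 11 were higher and 14 lower, and the median log2 difference was -0.06. Trpm3 had 1.55, 2.33 and 2.62 FPKM in control and 1.06, 0.0892 and 1.26 FPKM in model samples (log2 difference -0.87, SE 0.301), with a limma p of 0.0258 before adjustment and an adjusted p of 0.933. The call was lost in 8 of 18 alternatives, namely without Control_2, Control_3 or Model_2, with a pseudocount of 0.1, with sums weighted by length, with annotated transcripts alone, with the gene identifier in place of the name and with limma-voom. Of this sum 92.2% came from a single-exon intronic piece of 322 bases, and the annotated transcript of 24 exons, at 0.115 ± 0.0721 FPKM in control and 0.118 ± 0.0317 FPKM in model samples (SD), gave a log2 difference of 0.0045 (limma adjusted p = 0.998). The most abundant channels were Trpm6 (16.6 FPKM) and Trpm7 (14.6), which carry magnesium, and Trpm4 (10.4), and Trpv2 came next. Single-exon pieces gave 47.6% of the FPKM of Trpm4, and without such pieces Trpm7 (13.8) and Trpm6 (12.2) came before Trpv2 (9.46), and Trpm4 stood at 5.46 FPKM. Annotated transcripts held only 0.00886% of the FPKM of Trpm6 and 0.138% of that of Trpm7, the rest being assembled forms. Of the 2 called genes, Trpm3 passed in the sum and in its single-exon piece, but not in its annotated transcript. For the piece the log2 ratio of the means was -1.58, with a limma p of 0.0409 before and 0.945 after adjustment. Trpa1 had 1 transcript, an annotated one, so its sum and its annotated transcript are the same values.

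**Figure D3:**
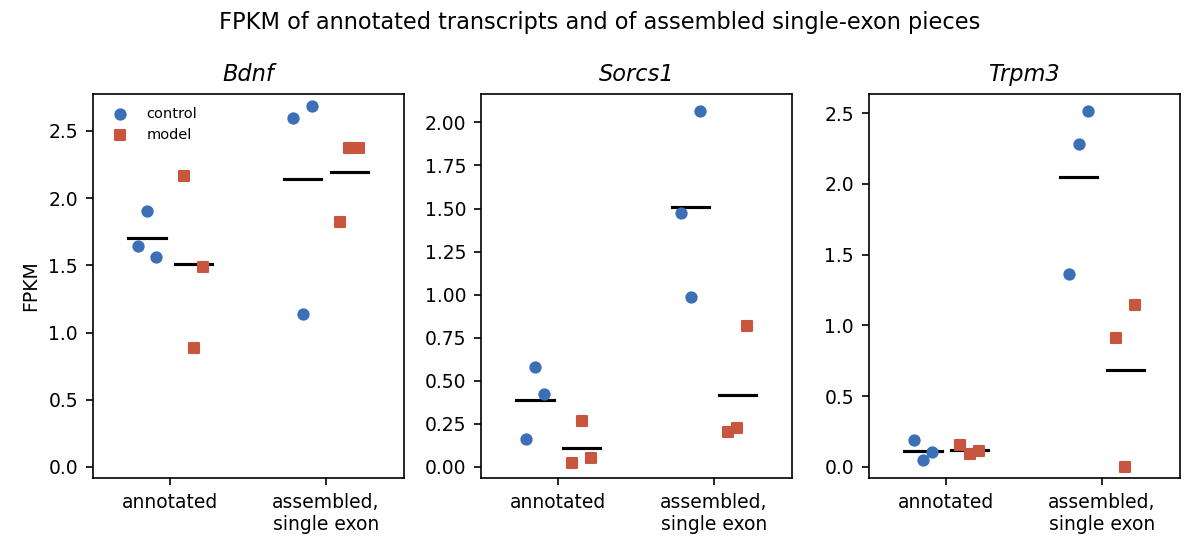
FPKM of the annotated transcripts and of the assembled single-exon pieces of Bdnf, Sorcs1 and Trpm3 in control (circles) and model (squares) rats, with group means as black lines and a linear axis for each gene. The pieces set most of the sum of Sorcs1 (79.3%) and Trpm3 (92.2%), and the annotated transcripts of all 3 genes overlap between the groups.

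**Figure D4:**
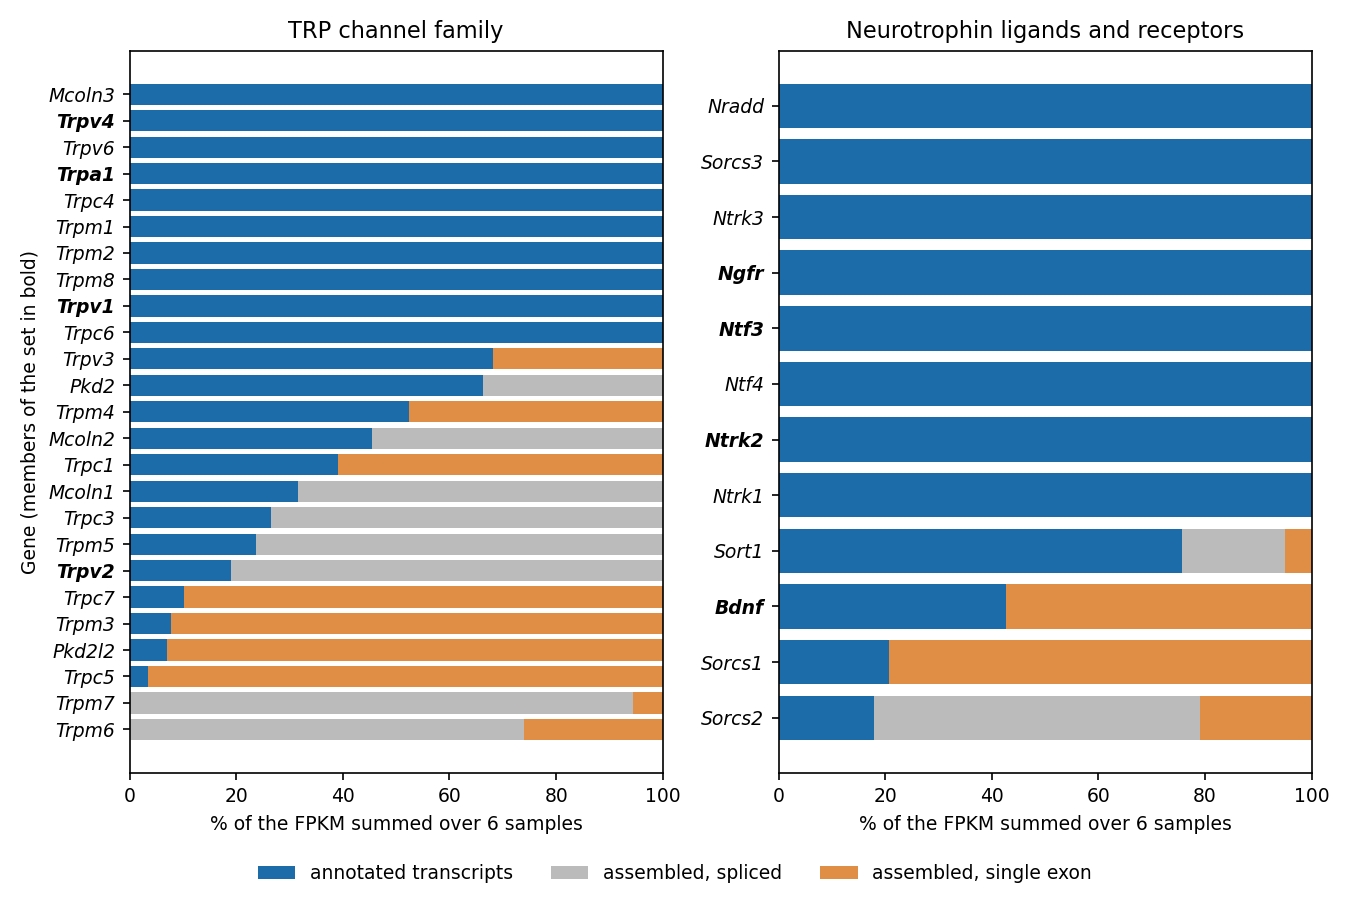
Percentage of the FPKM, summed over the 6 samples, that came from annotated transcripts, from spliced assembled transcripts and from assembled single-exon pieces, for 25 TRP channel genes and 12 neurotrophin ligand and receptor genes (the genes examined here in bold). Single-exon pieces exceeded 50% in 5 of the 25 and in 2 of the 12 genes, among them Trpm3, Sorcs1 and Bdnf.

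**Figure D5:**
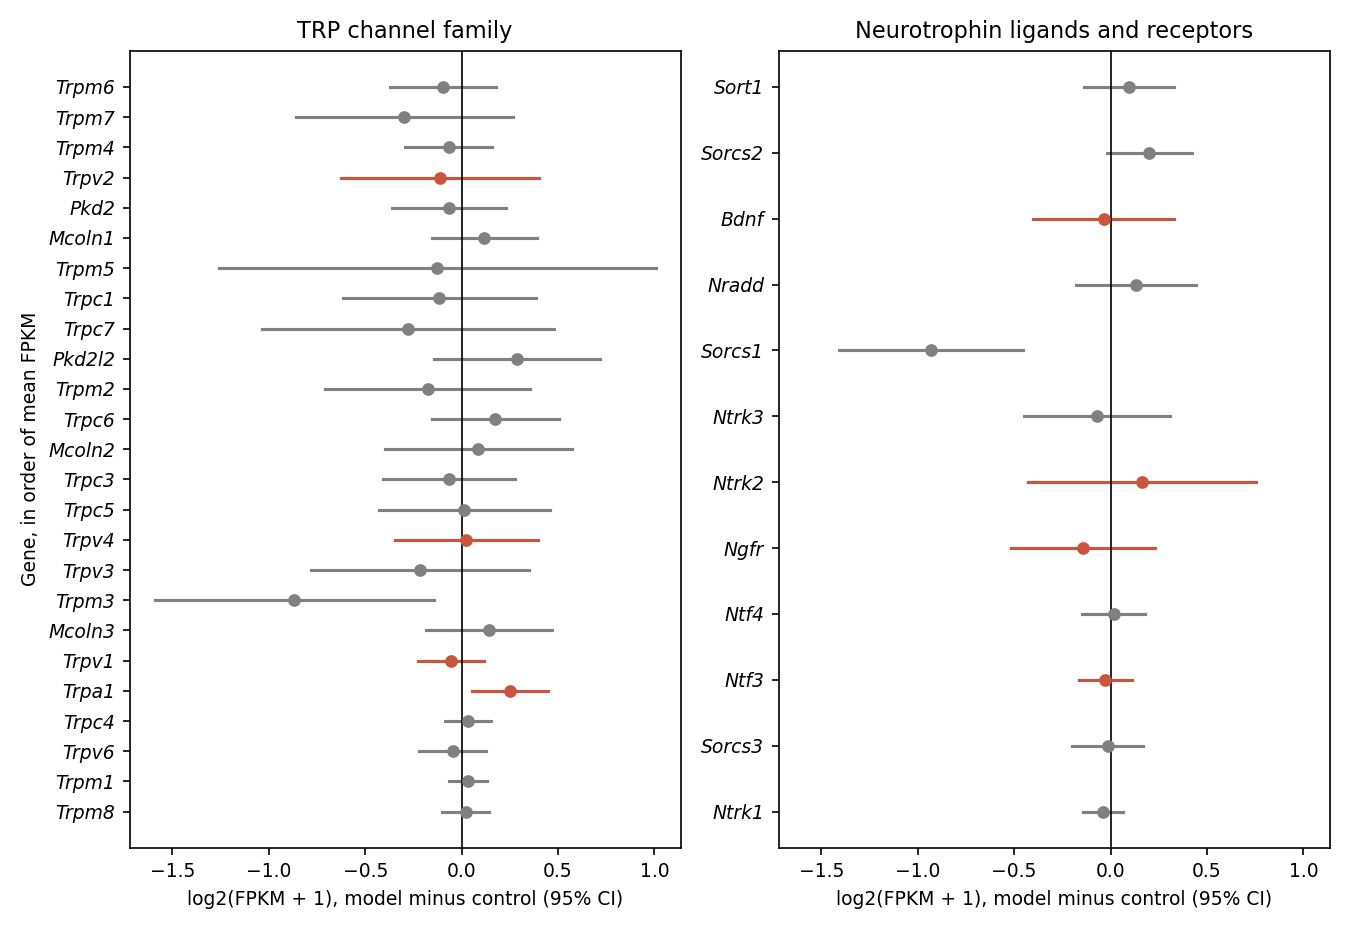
Difference between model and control on the log2(FPKM + 1) scale with its 95% interval from limma, for the same genes in order of mean FPKM, with the genes examined here in red and 0 marked by a line. The intervals of Trpa1, Trpm3 and Sorcs1 leave out 0.

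Genes that act beside these receptors were compared in the same way. None of 8 tested genes of proneurotrophin cleavage and the plasmin system and none of 18 tested receptor adaptors had an unadjusted p of at most 0.05 in limma. Of all genes tested 4.91% had such a p, and lists this small can hold none at that share. Furin, the protease that cleaves proneurotrophins, had 0.0641, 5.13 and 2.96 FPKM in control and 6.49, 5.32 and 8.87 FPKM in model samples (log2 difference 1.39, SE 0.625, limma adjusted p = 0.933), with Control_1 far below the rest. It was called in 3 of 17 alternatives. Mmp9, a matrix protease, had a log2 difference of -0.06 (limma adjusted p = 0.947). Among the adaptors, Frs2, which docks to Trk receptors, differed by 0.65 and Bex3, a p75NTR partner, by -0.14 on the log2 scale (limma adjusted p = 0.933 for both). The median differences of these lists were 0.03 and -0.0044.

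Receptors and enzymes known to sensitise TRP channels, 17 genes tested, also held none with an unadjusted limma p of at most 0.05, against 4.91% of all genes. The nearest were Bdkrb1, the inducible bradykinin receptor, at 0.0657, 0 and 0.0624 FPKM in control and 0.126, 0.104 and 0.166 FPKM in model samples (log2 difference 0.12, SE 0.0499), and Nos2, the inducible nitric oxide synthase, with a log2 difference of -0.25 (limma adjusted p = 0.933 for both). The groups of Bdkrb1 did not overlap, with a log2 ratio of the means of 1.63, and it was called in 5 of 17 alternatives. Its values rested on a mean of only 5.33 estimated reads per library. Of the 117 tested genes that the table assigns to the KEGG neurotrophin signaling pathway, 3 had a limma p of at most 0.05 before adjustment. Faslg, the ligand of the death receptor Fas, was lower (3.06 ± 0.584 against 1.76 ± 0.269 FPKM, SD, log2 difference -0.55), as was Zfp110, a p75NTR-binding zinc finger protein (-0.27), and Camk2a, a calcium-dependent kinase, was higher (0.43). Of 93 tested genes assigned to inflammatory mediator regulation of TRP channels, Trpa1, Camk2a and Src, a tyrosine kinase (6.09 ± 0.288 against 7.30 ± 0.266 FPKM, SD, log2 difference 0.23), were higher by that p and none was lower. The adjusted p of each of these genes was 0.933 in limma. These shares, 3 of 117 and 3 of 93, lie below the 4.91% of all genes, and the KEGG assignments are those of the table. Leaving out model rats 1 or 3 or any control rat took the p of Zfp110, Camk2a and Src above 0.05, while Faslg passed whichever rat was left out. With annotated transcripts alone none of Zfp110, Camk2a, Src and Faslg had a p of at most 0.05 in limma, and the log2 difference of Src turned to -0.06.

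Markers of sensory neurons, whose fibres are known to carry TRPA1 and TRPV1, were near 0 in these lungs. Of 12 sensory neuron markers, 11 stayed below 1 FPKM in every sample and 8 were at 0 in at least 1 sample, and the sum of all 12 lay between 8.52 and 12.7 FPKM in control and 5.30 and 13.5 FPKM in model samples, nearly all of it Avil. Without Avil the sum lay between 0.793 and 0.985 FPKM in control and 0.573 and 0.954 FPKM in model samples. Calca, which encodes the neuropeptide CGRP, had 0.146, 0.188 and 0.489 FPKM in control and 0, 0.135 and 0 FPKM in model samples (log2 difference -0.28, limma p of 0.0470 before and 0.933 after adjustment). With a log2 ratio of the means of -2.60 it met the rule for a call, as the 1 marker of the list to do so, against 1.52% of all genes. It rested on a mean of only 6.43 estimated reads per library. Of the 8 markers tested, 4 were higher and 4 lower, and the other neuropeptide gene, Tac1, had 0.112, 0.152 and 0 FPKM in control and 0.134, 0.277 and 0.182 FPKM in model samples. Calcb, Mrgprd, Isl1 and Pou4f1 were above 0 in no more than 2 samples. Of 11 pan-neuronal markers in the table, 10 stayed below 1 FPKM, and all 6 neuroendocrine markers did. Schwann cell markers summed to between 89.2 and 100.5 FPKM in control and 90.7 and 102.5 FPKM in model samples, mostly Pmp22, which other cells also express, and Sox10, the defining one, lay between 0.0442 and 0.108 FPKM. The part of nerve or glial content in the Trpa1 difference was not tested.

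Markers of the lung itself were present, among them the surfactant gene Sftpc at 2410 to 4146 FPKM. Of 12 fibrosis genes, 9 were higher in the model samples and 1, the collagen gene Col3a1, had a limma p of at most 0.05 before adjustment (174, 178 and 154 FPKM in control and 189, 204 and 233 FPKM in model samples, adjusted p = 0.933). The other 3 had lower means in the model samples, namely Lox (16.3 against 14.1 FPKM), Timp1 (8.86 against 7.57) and Mmp12 (1.27 against 0.881). The groups of Lox did not overlap (limma p of 0.0737 before adjustment). The fibroblast and pericyte markers, which include Col3a1, summed to 344 to 364 FPKM in control and 373 to 471 FPKM in model samples. Without Col3a1 the sums overlapped, at 187 to 191 and 185 to 238 FPKM. The mast cell markers summed to 29.4 to 32.6 and 34.2 to 38.9 FPKM, nearly all of it Kit (limma p of 0.0443 before and 0.933 after adjustment), while the mast cell proteases Tpsb2 and Tpsab1 stayed below 1 FPKM. Without Kit the sums overlapped, at 2.61 to 4.37 FPKM in control and 1.79 to 4.68 FPKM in model samples, and 4 of the 6 genes, Tpsb2, Tpsab1, Ms4a2 and Cpa3, had lower means in the model samples. In the lists for smooth muscle, macrophages, B cells and follicular dendritic cells, mesothelium, endothelium and lung epithelium, no gene had an unadjusted p of at most 0.05 in limma. Of all genes tested 4.91% had such a p. The part of these cell types in the difference of Trpa1 was not tested.

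The genes whose pattern over the 6 samples was most like that of each of 6 members with at least 20 estimated reads in every sample are given as a description, out of up to 14320 genes with a mean of at least 1 FPKM. Trpv2 was closest to Rabl2 (Pearson r 0.999), Trpv4 to Cdyl2 (0.994), Trpv1 to Setd5 (0.994), Ngfr to Adora2a (0.992), Bdnf to Cog2 (0.989) and Ntrk2 to Ctu1 (0.979). With 6 points such values are common, since each of these members had between 92 and 177 genes with r of at least 0.9.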

How the data were processed

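Lung RNA of 3 control and 3 model rats was analysed, grouped by the sample type in their labels. The members and gene lists were chosen with earlier results of these data known. The authors removed adapters (Cutadapt) and mapped reads with Bowtie2 and Tophat2, whereas the submitters' processing notes name HISAT2, TopHat and StringTie. They merged StringTie assemblies and deposited FPKM from StringTie and Ballgown. Per-base coverage, a signal for each transcript, was deposited beside them. For circRNAs, called with CIRCexplorer, the deposited values were back-splice reads as raw counts and a normalized signal that was not used here. The genome build is not given in the sources used here. The labels name a stranded kit.

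FPKM were summed per gene name. Reads were estimated as coverage times length divided by 150 bases, an approximation. Genes or transcripts above 0 FPKM in at least 3 of 6 samples were fitted on log2(FPKM + 1) in limma 3.58.1 with a mean-variance trend (R 4.3.3). These tests were two-sided, with Benjamini-Hochberg adjustment over all of them. Single values were compared by exact two-sided permutation tests over 20 regroupings. The labels give each library as a separate sample, and p-values measure only the spread between these samples. Named were all members, up to 4 genes per pathway list with a p of at most 0.05 before adjustment (else the smallest p in each direction), and the 3 most abundant of the TRP and neurotrophin lists. The transcript parts were chosen after their values were seen. One gene of the neurotrophin list is not reported here. The fit was tested on simulated data. Alternatives were another pseudocount, filter, way of summing, scaling and test, a fit with replicate numbers as blocks, and the omission of single rats. Figures used matplotlib 3.10.9, and tables pandas 2.3.3, numpy 2.4.6 and scipy 1.17.1 in Python 3.11.15.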

Additional observations from a re-analysis of the deposited data

How the results depend on the processing

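Of the values computed under each alternative for the 8 genes and their 17 tested transcripts, 260 kept their direction and their side of the threshold, 8 fell short of it, 4 newly passed it and 25 changed sign. No alternative gave a member or a member transcript an adjusted call. The number of member genes called, 1, became 0 where a mean of at least 1 FPKM was required, since only 3 of the 8 were then tested, and ranged from 0 (without Control_2 or without Model_1) to 2 (without Model_3, which added Ngfr) when single rats were left out. The number of member transcripts called, 1, became 0 with a pseudocount of 0.1, with a mean of at least 1 FPKM and with the replicate block, and ranged from 0 (without Model_1 or Model_2) to 2 (without Control_1) when single rats were left out. The transcript called without Control_2 was a single-exon piece of Bdnf, and without Model_3 that of Ngfr, in place of Trpa1. The log2 difference of Bdnf turned to 0.0288 with TPM and to 0.0059 with a common sum without small RNA genes, and that of Trpv2 to 0.0176 with sums weighted by length and to 0.0337 with limma-voom. When single rats were left out, the log2 difference ranged from -0.16 to 0.0332 for Bdnf, from -0.0572 to 0.0134 for Ntf3, from 0.0277 to 0.42 for Ntrk2, from -0.30 to 0.0327 for Trpv2 and from -0.11 to 0.12 for Trpv4 and its transcript ENSRNOT00000001586. Over the same omissions it ranged from -0.75 to 0.38 for the annotated Trpv2 transcript ENSRNOT00000004248 and from -1.24 to 0.00496 for the 11-exon Trpv2 form. For the Trpv1 transcripts ENSRNOT00000026456 and ENSRNOT00000093394 it ranged from -0.00245 to 0.0251 and from -0.000400 to 0.000296. For the Ntrk2 transcripts ENSRNOT00000082611 and ENSRNOT00000090914 it ranged from -0.0268 to 0.0525 and from -0.0153 to 0.44, and for the Bdnf transcript ENSRNOT00000090445 from -0.000424 to 0.00557. The causes of these changes were not tested. Over the whole table, 298 genes were called, and 84 where a mean of at least 1 FPKM was required and 519 with annotated transcripts alone. The other alternatives gave 205 to 411. For transcripts the count was 1934, and 1066 where a mean of at least 1 FPKM was required. Of the called genes 43.6% were higher in the model samples, against 57.3% with TPM.

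Rats with the same replicate number did not deviate together (correlations of 0.067, 0.028 and -0.087 over 14320 genes), so the numbers were not taken as pairs. The replicate block gave 312 called genes, of which 0 passed after adjustment in limma, while 881 had an unadjusted p of at most 0.05, and Trpa1 stayed the 1 member called. The mean difference of the spliced Bdnf FPKM, -0.193, ranged from -0.519 (without Model_1) to 0.120 (without Model_2) when single rats were left out, an alternative added after the data were seen. A count model for circRNAs was not run for these genes, since none reached 10 back-splice reads. Depth limited Ntf3 most, with 7.21 to 15.7 estimated reads per library.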
